A study of Mus musculus with 4 samples.

Results

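Lipocalin 2 (Lcn2) and 9 genes of cellular iron handling were followed in RNA sequencing of MMTV-Myc cells, a cell line from mouse mammary tumours that express Myc from the promoter of mouse mammary tumour virus, which is active in mammary epithelium. The other genes were Tfrc, Slc11a2 and Slc39a14 (uptake), Fth1, Ftl1 and Ncoa4 (storage), Slc40a1 (export), and Ireb2 and Aco1 (sensing). All 10 were found by symbol, each in a single row, among 22440 rows of the table that pairs mammosphere with bulk cells and 11708 rows of the table that pairs Cbx8 knockdown with control cells. The genes were chosen by function and by measured values of these libraries, namely the difference of Lcn2 between mammosphere and bulk cells. Member values in that comparison are therefore a description, and nothing is supported with them.

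Polyadenylated RNA came from 4 cultures of the line, 1 library per group, with the genotype otherwise labelled wild type. Bulk cells (day 0) grew in medium with 2% serum and 10 µg/ml insulin, and mammospheres (day 20) grew without attachment in medium with EGF and bFGF at 20 ng/ml each and a supplement. The other cultures carried lentiviral short hairpins, either against Cbx8 (a single hairpin, sh68) or as a control, under puromycin at 2 µg/ml. The control hairpin is labelled shScr in its description and shLuc in its genotype. The sources used here do not give whether the hairpin cultures were attached or free-floating.

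With 1 library per group no spread between replicates could be measured, so no difference below was tested here and each compares a pair of libraries, not conditions. Values are FPKM, fragment counts scaled to transcript length and to the mapped fragments of the library, which allows levels of different genes within a library to be compared per length. Log2 differences have 1 FPKM added to each value, which understates the change of low genes. A gene counts as measured with 1 FPKM or more in either library of its table. Higher and lower mean a difference of at least 2-fold on that scale. The 2 tables were made separately, so levels set side by side across them are not compared.

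Mammalian cells take up most iron as transferrin through the transferrin receptor, hold the surplus in ferritin and release it through ferroportin. Iron regulatory proteins bind a hairpin, the iron-responsive element, when iron is scarce. Binding near the start of a message blocks its translation, as in ferritin mRNA, while binding in the tail of the transferrin receptor message protects it from decay. Lcn2 is a secreted protein that captures siderophores, the iron chelators of bacteria, and is known both as a neutrophil granule protein and as a product of inflamed or transformed epithelium.

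The elements found in the members are shown because their place in a message separates control of its stability from control of its translation. A search of mouse GENCODE M21 transcripts (build GRCm38) on the sense strand asked for an unpaired C, 5 bases, the loop CAGTG followed by any base but G, and 5 bases that pair with the first 5, G-U pairs allowed. Each is printed with 5 flanking bases on either side, with the unpaired C and the 6-base loop in capitals.
Tfrc, element 1: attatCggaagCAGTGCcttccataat
Tfrc, element 2: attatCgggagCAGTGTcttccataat
Tfrc, element 3: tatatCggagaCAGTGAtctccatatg
Tfrc, element 4: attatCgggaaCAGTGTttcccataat
Fth1: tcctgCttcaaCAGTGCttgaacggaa
Ftl1: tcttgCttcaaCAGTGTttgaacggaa
Slc40a1: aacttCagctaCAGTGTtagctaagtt

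The 4 Tfrc matches lay in the 3' UTR on the plus strand at chr16:32631220-32631246, chr16:32631599-32631625, chr16:32631664-32631690 and chr16:32631711-32631737 of GRCm38, and did not overlap. The matches of the other 3 genes lay in the 5' UTR, at chr19:9982733-9982759 (plus strand) for Fth1, chr7:45459780-45459806 (minus) for Ftl1 and chr1:45925466-45925492 (minus) for Slc40a1. From the unpaired C to the last paired base, the ferritin elements were identical at 16 of 17 bases, whereas pairs of Tfrc elements shared 11 to 15 of 17. The search found a match in 4 of 10 members and in 222 of 21877 coding genes (1.01%), over transcripts of any length. In Lcn2, Slc11a2, Slc39a14, Ncoa4, Ireb2 and Aco1 these letters were not present, which says nothing about other forms of the element. Slc11a2 was itself listed here among messages with an iron-responsive element, so a missing match is not a missing element.

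Lcn2 mRNA (mm9 chr2:32240156-32243259) was at 27.2 FPKM in bulk and 1084 FPKM in mammosphere cells. It was 39.9-fold higher in mammospheres as a plain ratio, a log2 difference of 5.27, and ranked 1 of 11603 measured rows by that difference. By level it moved from rank 3013 to rank 20 of 22440 rows, so a gene of moderate abundance in the bulk culture stood among the most abundant messages of the spheres. The authors' deposited table gives this row a q of 1.9e-12. In the hairpin cultures Lcn2 was low, at 3.30 FPKM in control and 4.12 FPKM in Cbx8 knockdown cells.

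**Figure D1:**
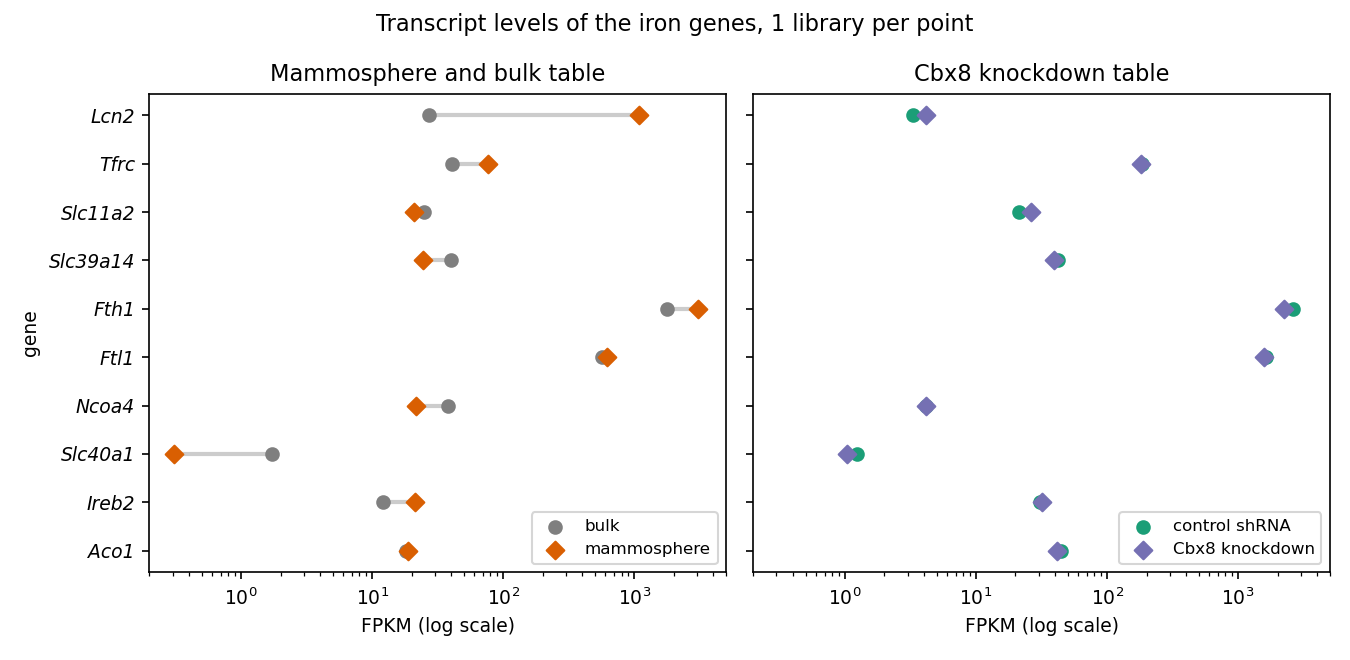
FPKM of the 10 genes on a log axis, with 1 point per library, for bulk and mammosphere cells (left) and for control shRNA and Cbx8 knockdown cells (right). Lcn2 spans 27.2 to 1084 FPKM on the left, while on the right the paired points of every gene nearly coincide.

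At 2-fold, 1 of 10 members was higher in mammospheres (Lcn2) and 1 was lower (Slc40a1). Of all measured rows, 3.54% were higher and 17.3% were lower, and because this contrast was in view when the genes were chosen, nothing is read from the member counts. The median log2 difference was 0.09 over the members, with 6 positive and 4 negative, and −0.24 over all 11603 measured rows, of which 34.7% were positive. Among the 9 members that the authors tested, their deposited table has a q under 0.05 for Lcn2 alone, and 11.9% of all tested rows were under that value.

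Zero on this scale is not a neutral point, since the median of rows with 1 FPKM or more in both libraries was −0.19. Centred on that median, the log2 difference of Tfrc became 1.08. With upper quartiles made equal, a shift of 0.32, Tfrc, Fth1 and Ireb2 all passed 2-fold higher, at 1.21, 1.10 and 1.07. Slc40a1 fell short of 2-fold under either scaling, at −0.86 and −0.97. Among all measured rows called, the share that were higher went from 17% (411 higher, 2002 lower) to 29.7% with centring and 34.4% with equal upper quartiles. The direction was kept under both scalings for every member but Slc11a2, which turned from −0.23 to 0.07 with equal upper quartiles.

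**Figure D2:**
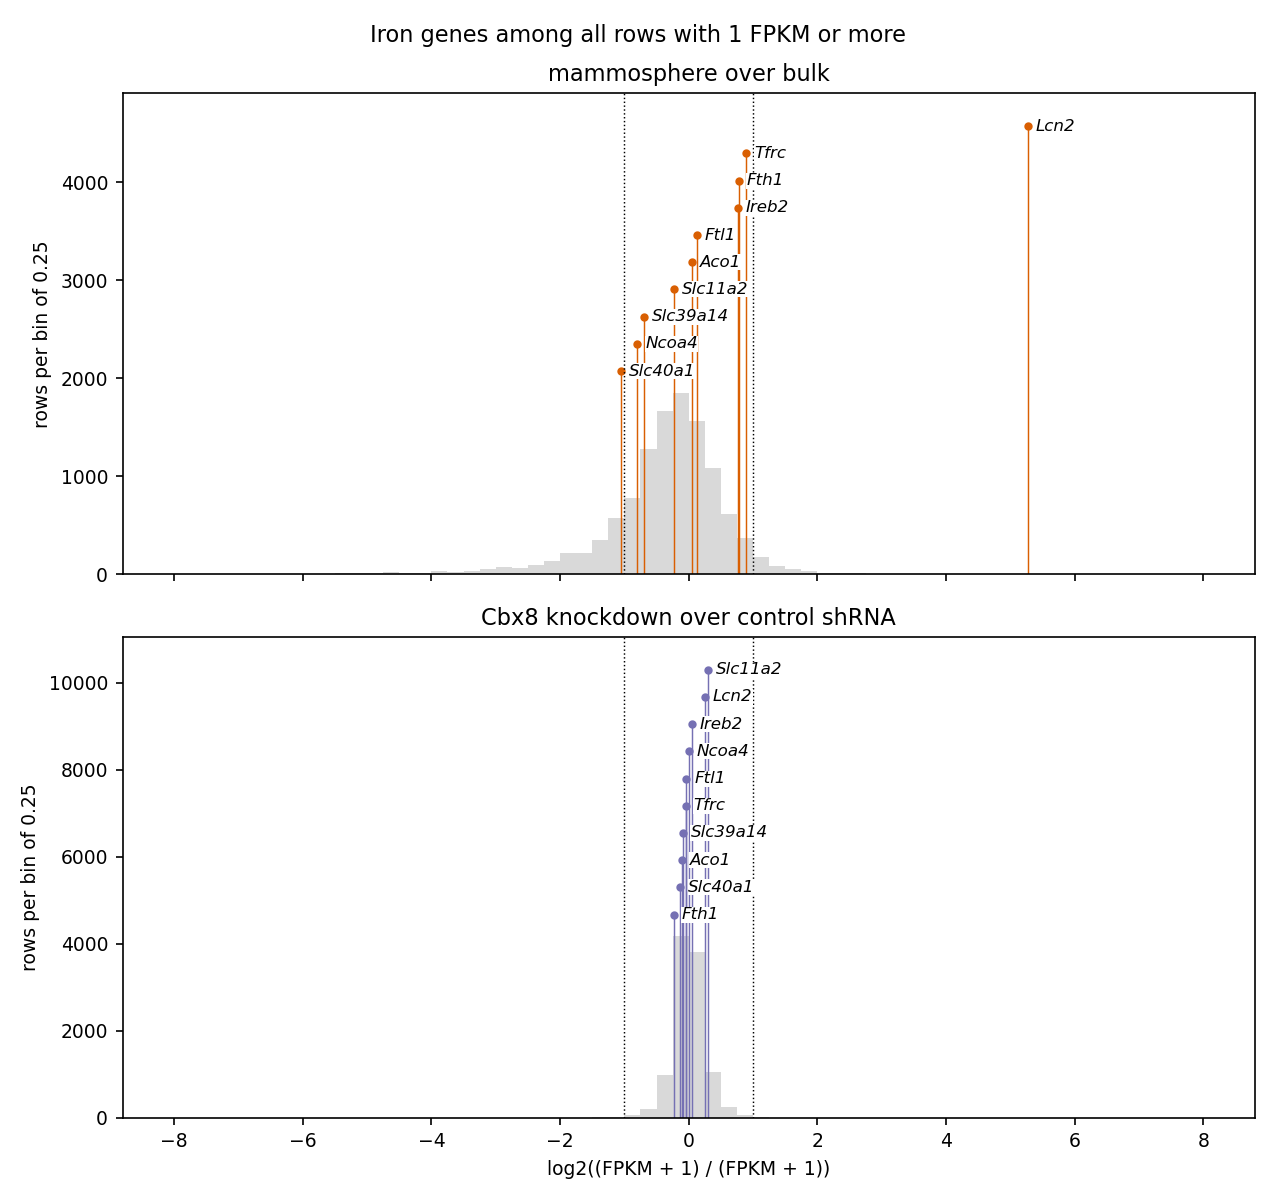
Log2 differences of the 10 genes (coloured lines, at arbitrary heights) over the histogram of all measured rows (grey, rows per bin of 0.25), for mammosphere over bulk (top) and Cbx8 knockdown over control (bottom). Dotted lines mark 2-fold. Lcn2 lies alone at 5.27 in the upper panel, and in the lower panel all 10 genes lie between −0.23 and 0.31. The sign of Slc11a2 in the upper panel turns with equal upper quartiles.

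Among the uptake genes, Tfrc, which brings in transferrin-bound iron, was at 40.8 FPKM in bulk and 76.7 FPKM in mammosphere cells, a log2 difference of 0.90. This difference was positive but did not reach 2-fold before rescaling. Slc11a2, the divalent metal transporter that moves iron out of endosomes, was at 24.7 and 20.9 FPKM, a log2 difference of −0.23 whose sign depended on the scaling. Slc39a14, a transporter of iron that is not bound to transferrin, was at 40.0 FPKM in bulk and 24.3 FPKM in mammosphere cells, a log2 difference of −0.70. The receptor and the 2 metal transporters thus did not share a direction. In the hairpin table Tfrc was at 186 FPKM in control and 181 FPKM in knockdown cells, Slc11a2 at 21.1 and 26.3 FPKM, and Slc39a14 at 42.1 and 39.5 FPKM.

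Fth1 transcripts were the most abundant of the set in all 4 libraries, and those of Ftl1 came next in all but the mammospheres. Fth1, the heavy chain that oxidises iron for storage, was at 1793 FPKM in bulk and 3092 FPKM in mammosphere cells, a log2 difference of 0.79, and moved from rank 18 to rank 2 of all rows. Ftl1, the light chain that aids mineral formation in the ferritin core, was nearly level at 568 and 620 FPKM, a log2 difference of 0.13. The ratio of heavy to light chain message was accordingly 3.15 in bulk cells and 4.99 in mammospheres. In the hairpin libraries the ratio was 1.61 in control and 1.41 in knockdown cells, with Fth1 at 2610 and 2223 FPKM and Ftl1 at 1620 and 1579 FPKM.

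Ferritin levels carry an uncertainty of assignment, since reads may be shared with near-identical copies. At 90% identity or more over 300 bases or more, GENCODE M21 transcripts held 1 other gene like Fth1 and 7 like Ftl1, the closest at 99.6% identity. The sources used here do not give how reads with several matches were shared out, and the part of this in the chain ratio was not tested.

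Ncoa4, the receptor that carries ferritin to lysosomes so that its iron can be used, was at 38.0 FPKM in bulk and 21.4 FPKM in mammosphere cells, a log2 difference of −0.80. Neither this difference nor that of Fth1, at 0.79, reached 2-fold. In the hairpin cultures it was at 4.14 FPKM in both libraries, far under Tfrc there. Tfrc was 1.07 times the level of Ncoa4 in bulk cells, 3.58 times in mammospheres, and 45.0 and 43.7 times in control and knockdown cells.

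Slc40a1, which encodes ferroportin, the known cellular iron exporter, was the scarcest member in each library. It was at 1.71 FPKM in bulk and 0.309 FPKM in mammosphere cells, and at 1.23 and 1.03 FPKM in control and knockdown cells. The mammosphere value was 5.52-fold lower as a plain ratio and −1.05 on the log2 scale, just past the 2-fold limit. The authors did not test this row, and the value sits so near the floor that the call ended when 5 FPKM were added to each value (−0.34). In a bulk sample, fewer cells of a type and less RNA per cell cannot be told apart.

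Messages of both iron regulatory proteins stayed within 2-fold between bulk and mammosphere cells before rescaling. Ireb2 (iron regulatory protein 2), which is degraded when iron is plentiful, was at 12.1 FPKM in bulk and 21.3 FPKM in mammosphere cells, a log2 difference of 0.76. Aco1 (iron regulatory protein 1), a cytosolic aconitase that binds RNA once it has lost its iron-sulphur cluster, was level at 18.0 and 18.8 FPKM, a log2 difference of 0.05. Ireb2 was 0.673 times Aco1 in bulk cells and 1.14 times in mammospheres, so the order of the pair was exchanged. In both hairpin libraries Aco1 was the more abundant of the pair. Ireb2 was at 30.9 and 32.0 FPKM and Aco1 at 44.5 and 41.4 FPKM in control and knockdown cells.

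Iron has opposite known effects on the products of Tfrc and of the ferritin genes. The ratio of their messages was computed, but control of ferritin through the element acts on translation. The ratio is therefore not read as a measure of iron state. Fth1 and Ftl1 together summed to 2362 FPKM in bulk and 3713 FPKM in mammosphere cells, and Tfrc was 0.0173 and 0.0207 times that sum. In control and knockdown cells the sums were 4230 and 3802 FPKM and the ratios 0.0440 and 0.0475. The ratio differed little within each pair, and in mammospheres both Tfrc and the ferritin sum were above their bulk values. Lcn2 was 0.0152 times the level of Fth1 in bulk cells and 0.351 times in mammospheres. In the hairpin libraries it was 0.00127 times that level in control and 0.00185 times in knockdown cells.

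Order by level set the members apart further. In bulk cells it ran Fth1, Ftl1, Tfrc, Slc39a14, Ncoa4, Lcn2, Slc11a2, Aco1, Ireb2 and Slc40a1, with Tfrc and Slc39a14 at 40.8 and 40.0 FPKM. In mammospheres Lcn2 lay between Fth1 and Ftl1, and Ncoa4, Ireb2 and Slc11a2 lay together at 21.4, 21.3 and 20.9 FPKM. In both hairpin libraries Ftl1 and then Tfrc followed Fth1, and Lcn2, Ncoa4 and Slc40a1 came last. Which neighbours in these orders differ beyond their spread could not be tested with 1 library each.

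A wider list of 94 iron and haem genes in 8 roles, the members included, placed these values among their pathways. In the mammosphere comparison 76 were measured, 2 were higher (Lcn2 and Blvrb) and 10 were lower, with a median log2 difference of −0.15. Centring gave 5 higher and 7 lower (median 0.04), and equal upper quartiles 7 higher and 9 lower (median 0.15), so the sign of the median rested on the scaling. Beside the 17.3% of all measured rows that were lower, this is not a result about iron genes. Without the members 1 of 66 was higher and 9 were lower.

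The lower genes included Trf, Hfe and Cp. Trf, which encodes transferrin, was at 17.2 FPKM in bulk and 1.4 FPKM in mammosphere cells, a log2 difference of −2.92. Hfe, which encodes a partner of the transferrin receptor, was at 2.19 and 0.154 FPKM. The authors did not test the Trf and Hfe rows. Of 13 measured uptake genes, these 2 (15.4%) were lower, beside 17.3% of all measured rows, so the count is no result about uptake. Among the same genes 0 were higher, or 1 (Tfrc) with either scaling, beside 3.54% of all measured rows before rescaling. Cp, which encodes ceruloplasmin, a ferroxidase that works with ferroportin, was at 107 FPKM in bulk and 12.5 FPKM in mammosphere cells. Its log2 difference was −3.00, and the authors' deposited table gives a q of 4.02e-11. Of 2 measured export genes both were lower in the spheres, and Cp alone with either scaling.

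Beside the ferritins, the iron chaperones Pcbp1 and Pcbp2, which deliver iron to ferritin, were at 236 and 263 FPKM in bulk cells and 201 and 199 FPKM in mammospheres. Of 5 measured storage genes, 0 were higher and 0 were lower at 2-fold, and 1 (Fth1) was higher with equal upper quartiles.

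In the sensing list of 6 genes, Zfp36 was the single gene past 2-fold, joined by Ireb2 with equal upper quartiles. It encodes tristetraprolin, which destabilises messages with AU-rich tails, and was at 323 FPKM in bulk and 22.2 FPKM in mammosphere cells, a log2 difference of −3.80 (q of 2.42e-09 in the authors' deposited table). Fbxl5, the ubiquitin ligase subunit that degrades iron regulatory protein 2, was level at 25.1 and 25.4 FPKM. The hypoxia factor genes Hif1a and Epas1 were at 39.8 and 45.0 FPKM and at 7.16 and 4.63 FPKM. Ireb2, at a log2 difference of 0.76, stayed within 2-fold before rescaling, and the message for the factor that degrades its product was level.

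Haem genes were mixed. Hmox1, the haem oxygenase that frees iron from haem, was at 74.7 FPKM in bulk and 28.0 FPKM in mammosphere cells, a log2 difference of −1.39. Blvrb, a biliverdin reductase further along that route, was at 9.85 and 23.3 FPKM, a log2 difference of 1.16. The authors' deposited table gives a q of 0.0686 to Hmox1 and 0.278 to Blvrb, neither under 0.05. Pgrmc1, which encodes a haem-binding membrane protein, was at 50.5 and 15.6 FPKM (q of 0.0263 in the authors' deposited table), Flvcr1 at 24.1 and 8.95 FPKM, and Hp, the gene of haptoglobin, at 1.27 and 0.0250 FPKM. The authors did not test the Flvcr1 and Hp rows. Of 10 measured genes of haem breakdown and transport, 1 was higher and 4 were lower. The counts were 2 and 3 with centring, and 2 and 4 with equal upper quartiles. Over all measured rows 3.54% were higher and 17.3% lower, or 5.63% and 13.3% with centring and 7.08% and 13.5% with equal upper quartiles. With so few genes, nothing is read from these counts. Of 11 measured haem synthesis genes, 0 were higher and 0 lower (1 higher with either scaling), with Alas1, the gate enzyme of the route, at 20.7 and 11.6 FPKM and Abcb6 at 7.08 and 14.4 FPKM.

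Mitochondrial iron and iron-sulphur assembly genes stayed within 2-fold. All 25 were measured, 7 were positive and 18 negative, and the median was −0.18, near that of all rows, or 0.01 with centring and 0.09 with equal upper quartiles. Nfu1, an iron-sulphur carrier, came closest to the limit at 22.9 FPKM in bulk and 11.1 FPKM in mammosphere cells, a log2 difference of −0.99.

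**Figure D3:**
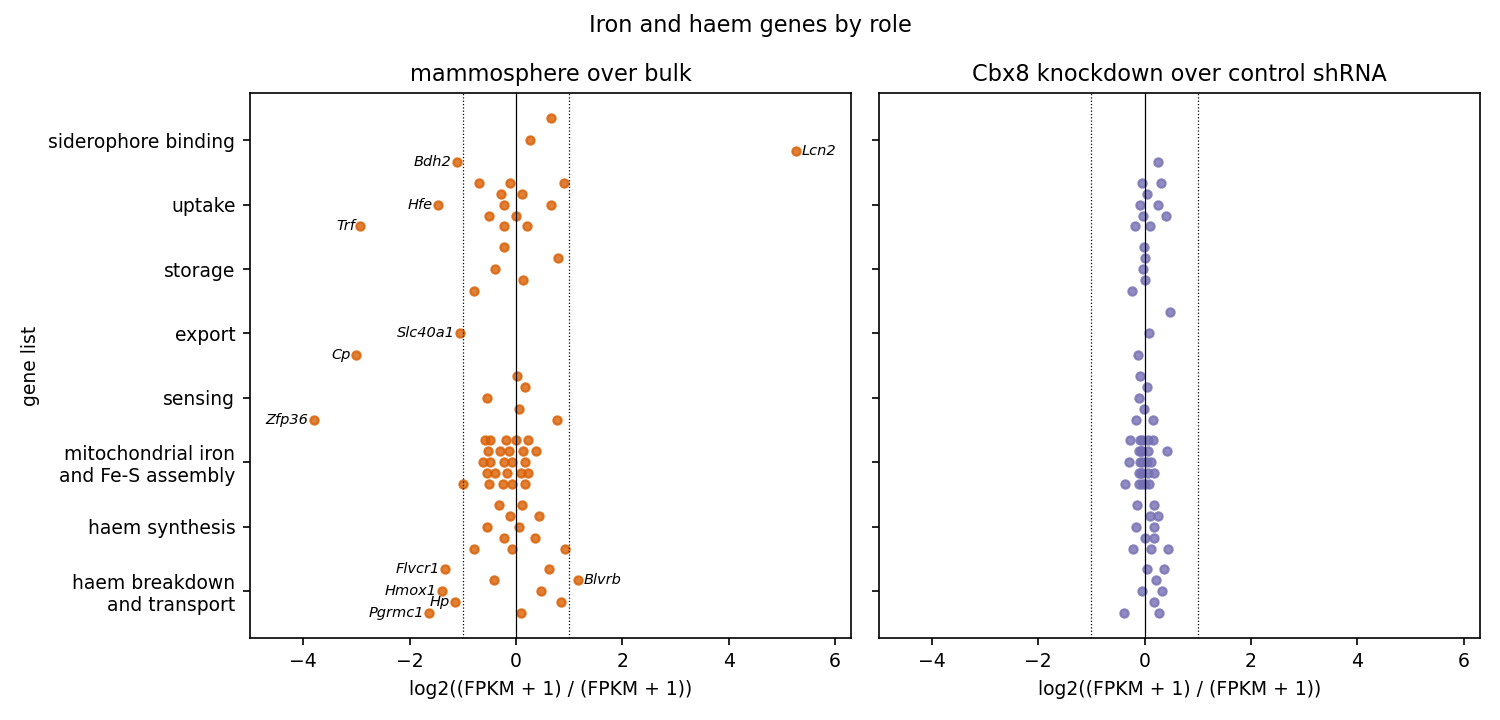
Log2 differences of measured iron and haem genes by role, 1 point per gene spread vertically within its role, for mammosphere over bulk (left) and Cbx8 knockdown over control (right). Dotted lines mark 2-fold, and genes at or past it are named. Lcn2 and Blvrb are the named genes on the right of the left panel, and no gene passes 2-fold in the right panel.

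Genes that act with Lcn2 did not differ in 1 direction. Lcn2 ranked 1 of all measured rows, so nothing is read from their smaller differences. Slc22a17, proposed as a receptor for Lcn2, was at 1.14 FPKM in bulk and 1.58 FPKM in mammosphere cells, and the endocytic receptor gene Lrp2 was listed at 0 and at 0.00197 FPKM. Mmp9, whose protein forms a complex with Lcn2, was at 9.07 and 14.9 FPKM. Bdh2, an enzyme linked to a mammalian siderophore, was at 1.4 and 0.107 FPKM, a log2 difference of −1.11. The authors did not test this row, and it fell short of 2-fold with centring.

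Lcn2 is known as a target of NF-kappaB, its cofactor Nfkbiz and C/EBP factors during inflammation, so its place among 32 acute phase and cytokine response genes was described. Of the 30 measured, 2 were higher in mammospheres and 22 were lower, with a median log2 difference of −1.54, beside 3.54% higher, 17.3% lower and a median of −0.24 over all measured rows. With centring 18 were lower and with equal upper quartiles 20, the higher ones still numbering 2. The higher genes were the chemokine genes Cxcl5, at 6.99 FPKM in bulk and 78.7 FPKM in mammosphere cells, and Ccl20, at 2.92 and 22.3 FPKM. The lower genes included the cytokine genes Il1b (23.2 and 0.165 FPKM), Il6 (12.5 and 0.260 FPKM) and Tnf (13.0 and 0.0249 FPKM), none of which the authors tested. Nfkbiz was at 196 and 24.0 FPKM and Cebpb at 84.0 and 33.0 FPKM.

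**Figure D4:**
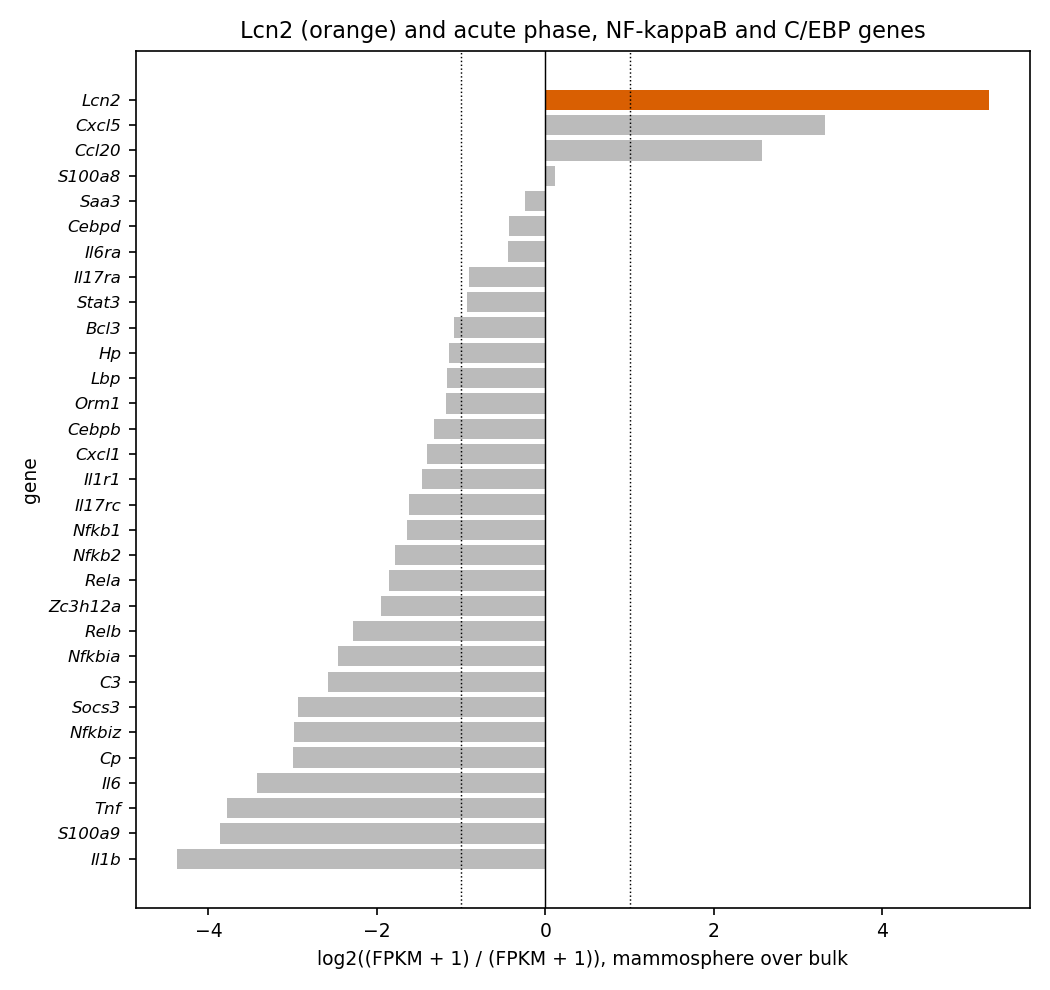
Log2 differences, mammosphere over bulk, of Lcn2 (orange bar) and of measured acute phase, NF-kappaB and C/EBP genes (grey bars), with dotted lines at 2-fold. Lcn2 at 5.27, Cxcl5 and Ccl20 extend to the right past the limit, and 22 grey bars extend to the left past it.

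Lcn2 belongs to the family of lipocalins and fatty acid binding proteins. Of 11 measured family members, 2 were higher in mammospheres, Lcn2 and Fabp5, and 7 were lower, or 3 with centring and 5 with equal upper quartiles. Over all measured rows 3.54% were higher and 17.3% lower, or 5.63% and 13.3% with centring and 7.08% and 13.5% with equal upper quartiles. Fabp5, which encodes a carrier of fatty acids, was at 11.2 FPKM in bulk and 112 FPKM in mammosphere cells. Crabp2, which encodes a retinoic acid binding protein, was at 61.0 FPKM in bulk and 0.854 FPKM in mammosphere cells.

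The cultures also differed in markers of other cell types. Of 13 neutrophil markers found, which matter because neutrophils store Lcn2, 8 were listed at 0 in mammospheres, among them Mpo, Elane, Camp, Ngp and Csf3r. Of all 22440 rows, 7229 were listed at 0 there, and 5 of these markers were measured, so nothing is read from the count at 0. Their summed level was 33.5 FPKM in bulk and 11.1 FPKM in mammosphere cells, where S100a8 made up 9.98 FPKM and Ltf was at 0.240 FPKM. These granule genes were also low in bulk cells, with Mpo at 0.0733, Elane at 0.0915, Camp at 0.214 and Ltf at 0.827 FPKM. They do not stand for the list, since S100a9 (13.6 FPKM), S100a8 (9.15 FPKM) and Itgam (5.8 FPKM) gave most of the bulk sum. In mammospheres the value of S100a9 was 0 and that of Itgam 0.604 FPKM. Among the 5 measured markers, 4 were lower (3 with centring, 4 with equal upper quartiles) and 0 were higher. Of all measured rows 17.3% were lower and 3.54% were higher. Of 14 measured macrophage markers, 12 were lower and 1, Cd68, was higher (35.5 and 101 FPKM), beside the same shares of all measured rows. Both counts were the same with either scaling. Lyz2, a macrophage lysozyme, was at 121 FPKM in bulk and 0.0737 FPKM in mammosphere cells, and C1qb at 26.4 FPKM and listed at 0.

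Fibroblast markers summed to 416 FPKM in bulk and 1.09 FPKM in mammosphere cells, with the collagen gene Col3a1 at 128 and 0.0623 FPKM. The part of these cell type markers in the lower values of Slc40a1, Trf, Cp, Hmox1 and the cytokine genes was not tested. Red cell markers did not exceed a sum of 1.60 FPKM in either library. Of 8 measured epithelial markers, 6 were lower in the spheres (4 with centring, 6 with equal upper quartiles) and 0 were higher. Of all measured rows 17.3% were lower (13.3% with centring, 13.5% with equal upper quartiles) and 3.54% were higher. The keratin genes Krt8 and Krt18 were at 334 and 570 FPKM in bulk and at 5.14 and 58.2 FPKM in mammosphere cells, while Krt19 was level at 9.08 and 9.65 FPKM. Epcam and Cdh1, defining epithelial genes, were near the floor in every library. Epcam was at 1.06 and 0.0908 FPKM in bulk and mammosphere cells and at 0.338 and 0.0427 FPKM in control and knockdown cells. Cdh1 was at 1.04 and 0.0135 FPKM and at 0.283 and 0.206 FPKM in the same order. These 2 genes do not stand for the list. All epithelial markers found summed to 954 FPKM in bulk and 74.15 FPKM in mammosphere cells. In control and knockdown cells the sums were 440 and 444 FPKM.

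Rows near Lcn2 on its chromosome were examined to see whether the difference extended to them. The nearest, 1110008P14Rik, lies 2721 bp away and was at 20.7 FPKM in bulk and 63.4 FPKM in mammosphere cells, a log2 difference of 1.57. Beyond it, Ciz1 and Dnm1 differed by 0.10 and 0.40. On the other side Ptges2, at 8150 bp, differed by 0.38 and Naif1 by 0.18, while Slc25a25, a mitochondrial carrier gene, was at 87.6 and 14.7 FPKM, a log2 difference of −2.50. The neighbourhood did not move in a single direction.

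Among 10381 genes measured in both tables, those nearest to Lcn2 by the Euclidean distance between their pairs of log2 differences, over 4 libraries, included Aldh1l2 (distance 1.33), Fads2 (1.94) and Fdps (1.98). Aldh1l2, which encodes an enzyme of folate metabolism in mitochondria, was at 1.28 FPKM in bulk and 34.6 FPKM in mammosphere cells. Fads2, a fatty acid desaturase gene, was at 4.46 and 54.4 FPKM in these libraries. In the hairpin libraries its level was 124 FPKM in control and 129 FPKM in knockdown cells, where Lcn2 was at 3.30 and 4.12 FPKM. Fdps, which makes farnesyl diphosphate, was at 10.2 and 111 FPKM in bulk and mammosphere cells. The mammosphere log2 differences were 3.96 for Aldh1l2, 3.34 for Fads2 and 3.32 for Fdps, against 5.27 for Lcn2, so none was close to it. Because Lcn2 ranked 1 by that difference and was chosen for it, nothing is read from which genes came nearest.

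The hairpin experiment asked what follows from reduced Cbx8, a chromodomain protein of the Polycomb group. Cbx8 itself was at 4.74 FPKM in control and 1.23 FPKM in knockdown cells, 3.84-fold lower as a plain ratio, with a q of 0.385 in the authors' deposited table. At 2-fold, 0 of 10 members were higher and 0 were lower, where 0.299% of all measured rows were higher and 0.449% lower. The member median was −0.04 and that of all 10685 measured rows −0.01. The widest differences were Slc11a2 at 0.31, Lcn2 at 0.25 and Fth1 at −0.23, and Ncoa4 was level at −0.001. The authors' deposited table gives a q of 0.999 to all 10 members, with 0.205% of its rows under 0.05.

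Lcn2, at 4.12 over 3.30 FPKM, was 1.25-fold higher in knockdown cells and ranked 1397 of 10685 measured rows by log2 difference. The same table holds Krt14, a basal keratin gene, at 1.09 FPKM in control and 10.5 FPKM in knockdown cells, so differences of several fold between these libraries could be seen. Of the wider list, 68 genes were measured and 0 were higher or lower, with a median of 0.01 and a range of −0.38 to 0.48. Flvcr1 (27.3 and 20.7 FPKM), at the low end, and the erythroferrone gene listed as Fam132b (5.04 and 7.44 FPKM), at the high end, marked that range. Of 20 measured acute phase genes 0 were higher and 0 lower. In the lipocalin family Ptgds, a prostaglandin synthase of that fold, was at 6.49 FPKM in control and 0.359 FPKM in knockdown cells. It was the 1 of 6 measured family members past 2-fold, where 0.449% of all measured rows were lower. The difference rests on 1 library per group, and the authors' deposited table gives it a q of 0.471.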

How the data were processed

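The tools were Cuffdiff (listed as 0.0.7), Cufflinks 1.3.0, TopHat 1.4.0 and FastQC 0.10.0 on build mm9, per the submitters' processing notes, which give no settings. The authors deposited 2 Cuffdiff tables with FPKM, a p-value and a q-value per row, per the file headers. Depth is unknown, since the files hold no counts, so no counting interval was computed. No row of the knockdown table is at 0, whereas 5458 bulk and 7229 mammosphere rows are listed at 0, so genes silent in the hairpin cultures may lack a row there. FPKM sums ranged from 322787 to 468101 per library.

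The members and gene lists were chosen with earlier results of these data known. Of 218 listed genes, 216 and 122 had a row in the mammosphere and knockdown tables (4 and 2 by an older symbol that RefSeq gives to that gene alone). Named are all members, up to 4 genes per other list and comparison with the largest absolute log2 difference, the whole sensing list, the 5 genes nearest to Lcn2, 3 measured rows on each side of it, and Cbx8. Some genes that this rule names are not reported here. Hp, Cxcl5, Ccl20, Nfkbiz, Cebpb, Lrp2, S100a8, Ltf, Cd68, Mpo, Elane, Camp, Ngp, Epcam and Cdh1 were named after their values were seen. With 1 library per group, no p-value was computed here. Python 3.11.15, pandas 2.3.3 and BLAST 2.17.0 were used, and the counting step was tested on simulated data.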

Additional observations from a re-analysis of the deposited data

How the results depend on the processing

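Alternatives were other pseudocounts (0.1 and 5 FPKM), centring on the median gene, equal upper quartiles, no FPKM minimum or 5 FPKM, rows that the authors tested, fold limits of 1.5 and 4, summed rows of a symbol, and the authors' q under 0.05. The count of members higher in mammospheres (1) became 2 with centring and 4 with equal upper quartiles or a 1.5-fold limit. The count of members lower (1, Slc40a1) became 0 with 5 FPKM added, centring, equal upper quartiles, a minimum of 5 FPKM, tested rows alone, a 4-fold limit or the authors' q, and 3 with a 1.5-fold limit. The wider list's 12 changed genes became 7 with 5 FPKM added, 6 among tested rows, 26 at 1.5-fold and 4 at 4-fold or by the authors' q. Of 78 member values recomputed for the mammosphere comparison, 70 kept direction and side of the limit and 8 moved, and of 77 for the knockdown comparison 76 kept them. The move was Ncoa4 to 0.005 with centring. No paired analysis was possible because each group holds 1 library. Depth is unknown, so no counting error could be given for low values such as Slc40a1.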
